A study of Mus musculus with 6 samples.

Results

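Genes for potassium, calcium, sodium and transient receptor potential (TRP) channels, together with the proton channel gene Otop1, were measured by RNA sequencing in cultured mouse adipocytes. They were the 67 genes of a table of 20295 whose symbols follow the naming patterns of these families and which had at least 10 read counts summed over the 6 libraries. The patterns matched 153 symbols, of which 86 stayed below that minimum, 6 of them at 0 in every library. Kcnmb1, with 10 counts, was the member just inside the minimum, and Kcnj3, Scn9a, Trpm5, Trpv1 and Kcnk4, with 9 counts each, lay just outside it. The names cover more than ion-conducting pores: the members include 8 auxiliary subunits and binding partners of potassium channels and 7 auxiliary subunits of calcium channels, as well as sodium channel beta subunits. The rule used no measured value other than this count minimum, but it was chosen with earlier results of these data known.

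The cultures were stromal-vascular cells, the mixed cell fraction left when mature fat cells are removed from collagenase-digested fat, and they came from 3 depots of male NMRI mice aged 4 to 5 weeks. The BAT cultures were from brown fat, pooled over the interscapular, cervical and axillary pads, the iWAT cultures from inguinal white fat and the eWAT cultures from epididymal white fat, with 2 libraries each. Cells of every depot were kept in a differentiation medium whose additions included 30 nM insulin, 10% serum of newborn calves and 1 µM rosiglitazone, an agonist of the adipogenic receptor Pparg. Harvest was 8 days after plating by the labels, whereas the count columns carry a day 7 tag, and a culture was used if more than 50% of it had differentiated. The labels give no genetic modification and no untreated cultures, so rosiglitazone and insulin were common to all groups, and whether the paired libraries of a depot had separate animals or dishes as their source is not stated. The p-values below therefore set each difference between depots against the spread of these samples, and that spread may be technical. The cells were differentiated outside the animal, and no mature fat tissue was sequenced.

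Ion channels are membrane proteins that let selected ions cross down their gradients. Potassium leak and inward rectifier channels hold the resting potential of a cell, voltage-gated sodium and calcium channels open on depolarization, and many TRP channels pass calcium in response to heat, stretch or chemical ligands. Pore-forming subunits often work with smaller auxiliary subunits that set their gating and their traffic to the membrane. In brown fat, channels have been studied as regulators of thermogenesis, among them the potassium leak channel Kcnk3 and several TRP channels.

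The total count ran from 2889038 to 4807449 per library, and 56 to 67 of the 67 members had a count in a given library. The members took 0.0910% to 0.110% of the counts, so most channel genes were measured at low depth: an upper limit of 3 counts for a gene at 0 came to between 0.634 and 1.15 CPM (counts scaled by library size). Such limits cover counting error and not the spread between cultures. A filter on low counts applied to the whole table kept 35 members, with 53 to 5348 counts in all, and left 32 members, with 10 to 52 counts in all, untested. The 6 brown adipocyte markers, Ucp1 among them, summed to 5846 and 10873 CPM in the BAT libraries, 1395 and 1228 CPM in the iWAT libraries and 134 and 177 CPM in the eWAT libraries, highest in BAT and lowest in eWAT. The 7 adipocyte markers summed to between 24646 and 42973 CPM in every library. Fabp4 alone gave most of each sum, with 15887 to 32204 CPM, and was highest in both BAT libraries.

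The channel genes Otop1, Scn7a and Kcnj15 stand for the main differences, and the 250 bases before their annotated starts are given for reference. Otop1 was the channel gene with the highest level per kilobase in both BAT libraries. Scn7a and Kcnj15 were lower in BAT than in both white depots. The sequences are RefSeq's on GRCm38.p6, a later build than the mm9 of the files, at chr5:38277154-38277403 on the plus strand for Otop1, chr2:66784911-66785160 on the minus strand for Scn7a and chr16:95257308-95257557 on the plus strand for Kcnj15. Capitals mark the GC box GGGCGG on either strand, the 1 motif of 5 searched that was found in any of them.
Otop1: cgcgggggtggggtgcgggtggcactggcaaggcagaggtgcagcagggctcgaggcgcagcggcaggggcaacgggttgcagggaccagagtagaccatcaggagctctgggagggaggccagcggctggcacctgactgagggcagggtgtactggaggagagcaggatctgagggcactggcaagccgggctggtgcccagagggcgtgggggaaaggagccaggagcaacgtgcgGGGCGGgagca
Scn7a: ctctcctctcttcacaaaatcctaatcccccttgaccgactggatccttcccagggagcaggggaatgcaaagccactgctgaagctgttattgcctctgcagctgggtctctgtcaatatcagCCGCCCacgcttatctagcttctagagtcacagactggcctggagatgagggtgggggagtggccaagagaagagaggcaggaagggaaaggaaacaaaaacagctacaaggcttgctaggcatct
Kcnj15: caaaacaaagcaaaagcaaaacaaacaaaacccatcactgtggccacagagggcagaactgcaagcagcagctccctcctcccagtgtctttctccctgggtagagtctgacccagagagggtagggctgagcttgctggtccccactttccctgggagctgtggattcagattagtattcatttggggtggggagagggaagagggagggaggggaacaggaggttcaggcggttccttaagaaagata

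Otop1 and Scn7a each held 1 GC box, and Kcnj15 held none. Of 32851 promoters of this length in the table, 32.7% held that motif on at least one strand. The other motifs searched on both strands were TATAAA, present in 12.4% of promoters, the Ebf motif CCCNNGGG in 11.8%, the E-box CACGTG in 6.02% and the cyclic AMP response element TGACGTCA in 1.55%. GGGCGG and CCCNNGGG can share bases in a GC-rich stretch. Their absence here concerns these windows alone.

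Between BAT and iWAT cultures, Scn7a, which encodes an atypical, sodium-sensing member of the sodium channel family, and Kcnj15, an inward rectifier potassium channel gene, were lower in BAT. These were 2 of the 35 tested members, called at an adjusted p below 0.05 by edgeR's quasi-likelihood test, against 1.04% of all 11732 genes tested in either direction and 0.895% lower. No member was called higher in BAT, a direction that held 0.145% of all genes. Between BAT and eWAT cultures, Otop1 and the voltage-gated potassium channel gene Kcnc2 were higher in BAT, a direction that held 2.71% of all genes. Scn7a, Kcnj15 and the potassium leak channel gene Kcnk13 were among the members lower in BAT, a direction that held 3.75% of all genes. In either direction 6 of 35 members were called, which compares with 6.46% of all genes.

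Between iWAT and eWAT cultures the edgeR test called 0 of 35 members and 0% of all genes. At an unadjusted p below 0.05 it picked out 8 of 35 members, against 9.34% of all genes. DESeq2 called 3 members, against 2.57% of all genes: Otop1 (log2 difference 1.68, adjusted p = 0.000814) and Kcnc2 (2.64, adjusted p = 0.0434) were higher in iWAT, and Kcnk13 (-3.88, adjusted p = 0.00453) was lower. Limma voom called 0 members. The unadjusted counts by edgeR were 8 of 35 members for BAT against iWAT, where 16.6% of all genes passed, and 15 of 35 for BAT against eWAT, where 25.9% passed. DESeq2 called 3 members in the first of these, against 4.35% of all genes, and 9 in the second, against 11.7%. The 3 comparisons share libraries in pairs, so their values are set side by side and not counted as separate evidence.

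**Figure D1:**
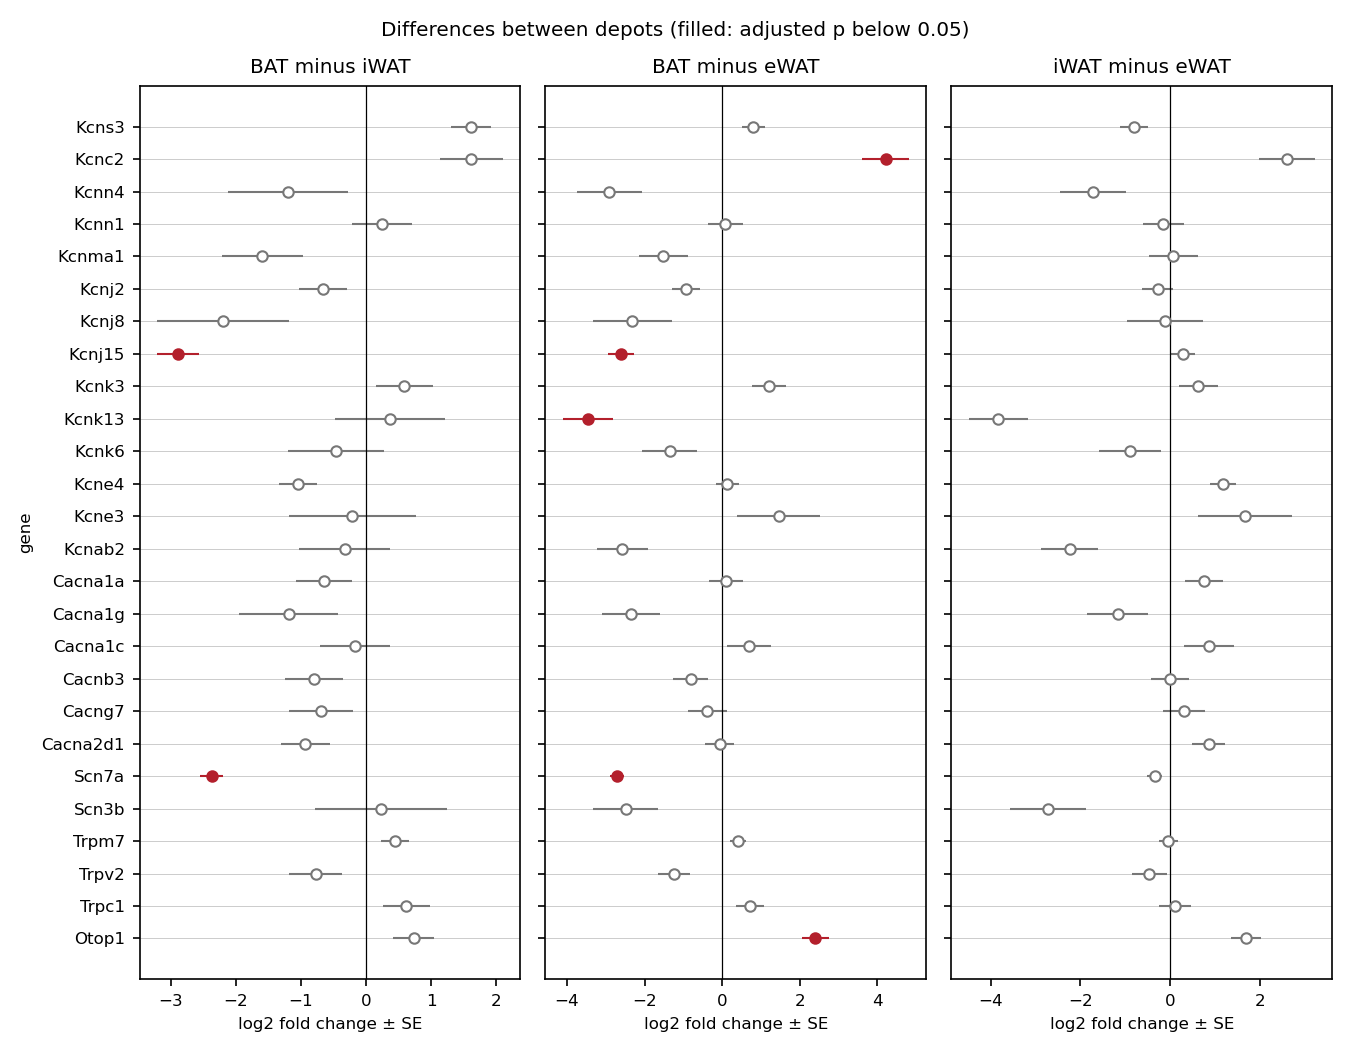
Log2 difference between depots (x axis, with its standard error as a bar) for 26 of the 35 tested channel genes (y axis, grouped by family), by edgeR, in 3 panels with their own scales; filled red points have an adjusted p below 0.05. Scn7a and Kcnj15 are filled in both BAT panels, and no point is filled for iWAT minus eWAT.

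Ranked per kilobase, a scale that allows genes to be compared, a few genes carried most of the channel signal. Trpm7, Scn7a, Otop1 and Kcnk3 together held 56.9% and 73.7% of the summed RPKM (CPM per kilobase of counted length) of the 67 members in the BAT libraries, 53.9% and 50.6% in the iWAT libraries, and 42.5% and 46.3% in the eWAT libraries. Otop1 ranked first in the BAT and iWAT libraries, and Scn7a ranked first in the eWAT libraries. Between 21 and 28 members reached 1 RPKM in a library, and between 4 and 8 reached 10 RPKM.

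**Figure D2:**
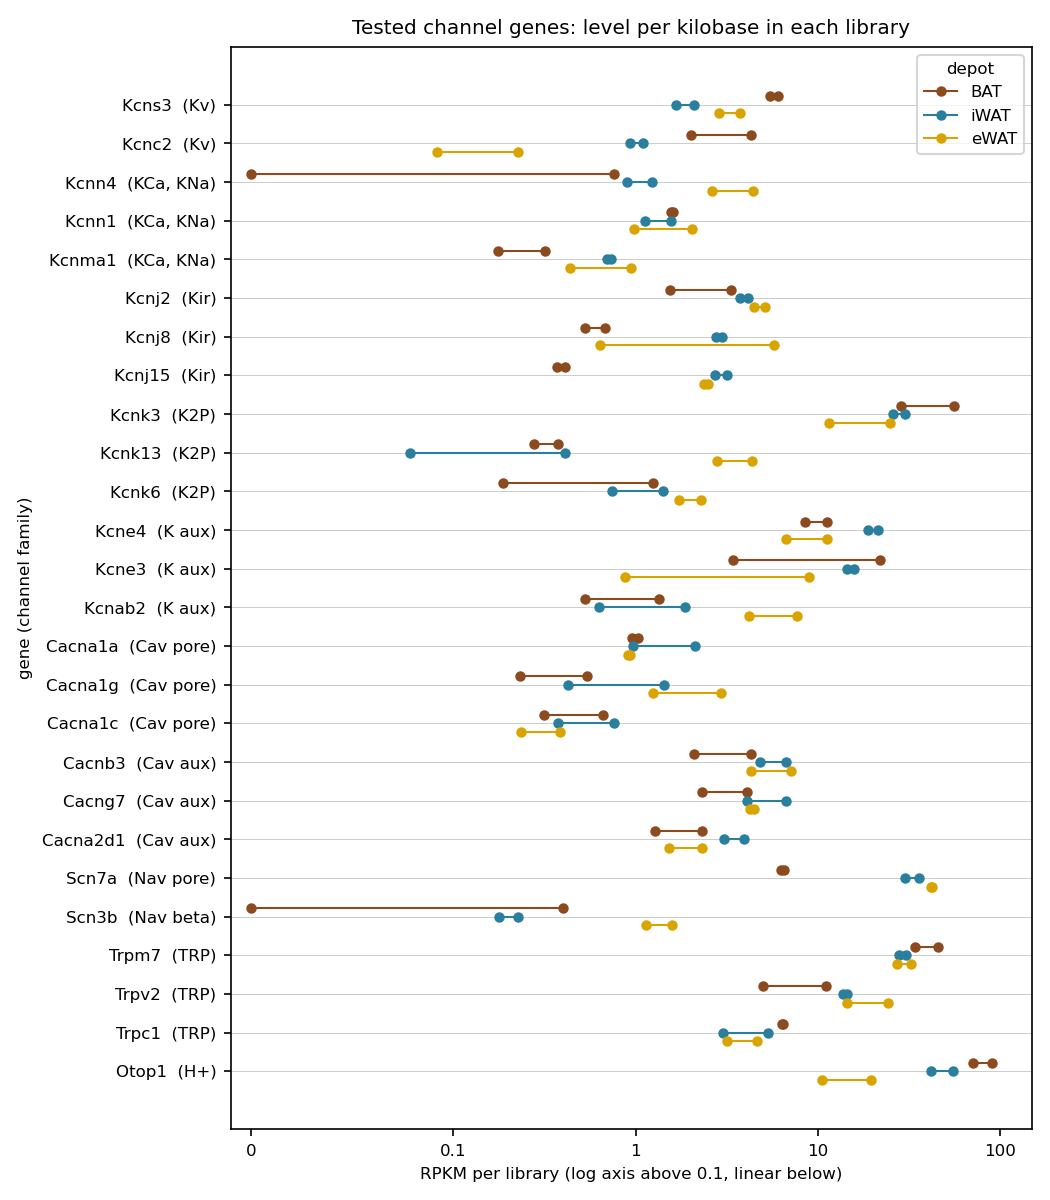
Level of 26 of the 35 tested channel genes in RPKM (x axis, logarithmic above 0.1 and linear below) by gene and family (y axis); points are libraries, joined for the 2 libraries of a depot, in brown for BAT, blue for iWAT and yellow for eWAT. Otop1, at the bottom, runs from 10.6 RPKM in an eWAT library to 90.1 RPKM in a BAT library, and the calcium and voltage-gated potassium channel genes stay below 10 RPKM.

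Otop1 (NM_172709; mm9 chromosome 5, 38668642 to 38695456) encodes a proton channel first known from the otoconia of the inner ear and from sour taste cells. It had 223 and 284 CPM in the BAT libraries, 175 and 131 CPM in the iWAT libraries and 62.0 and 33.3 CPM in the eWAT libraries. The 3 depots did not overlap, with BAT highest and eWAT lowest. Per kilobase its mean level was 80.5 ± 13.5 RPKM in BAT, 48.5 ± 9.80 RPKM in iWAT and 15.1 ± 6.44 RPKM in eWAT (SD, n = 2). By edgeR it was 5.30-fold higher in BAT than in eWAT (log2 difference 2.41 ± 0.34 SE, adjusted p = 0.0234), a call that was lost without BAT replicate 2 (2.22), iWAT replicate 2 (2.41) or eWAT replicate 2 (2.04). The difference from iWAT was 0.73 ± 0.32 (adjusted p = 0.326), and that of iWAT from eWAT was 1.68 ± 0.33 (adjusted p = 0.155). In these bulk samples, fewer cells of a type and less RNA per cell cannot be told apart.

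**Figure D3:**
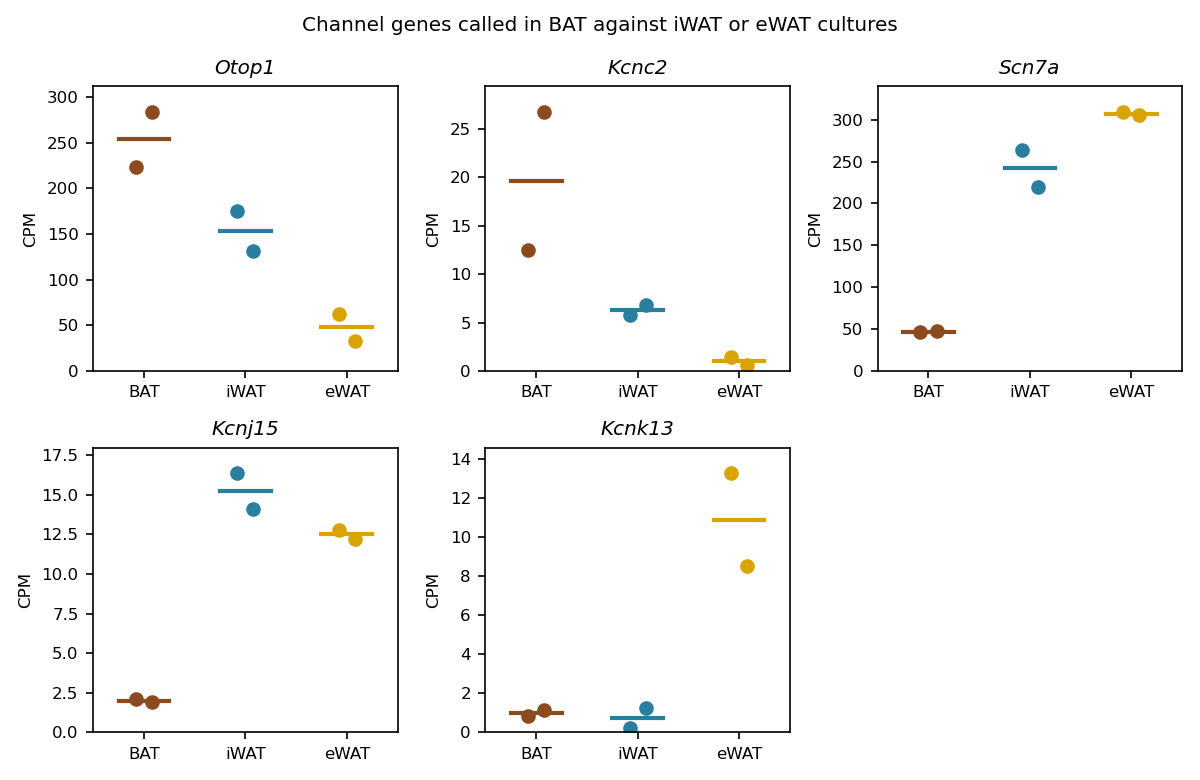
CPM on a linear axis from 0 (y axis, one scale per panel) by depot (x axis) for 5 channel genes called in BAT against iWAT or eWAT; points are libraries and lines are means of 2. Otop1 and Kcnc2 step down in the order BAT, iWAT and eWAT, while the BAT libraries lie lowest for Scn7a and Kcnj15.

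Among sodium channel pore genes, 3 of 9 symbols were members and Scn7a was the one tested. Scn7a (NM_009135; mm9 chromosome 2, 66511482 to 66622967) had 46.1 and 47.8 CPM in the BAT libraries, 264 and 219.7 CPM in the iWAT libraries and 309 and 305 CPM in the eWAT libraries. The BAT libraries lay far below the other 4, and the eWAT libraries lay above those of iWAT by a smaller step. It was 6.55-fold lower in BAT than in eWAT (log2 difference -2.71 ± 0.18 SE, edgeR adjusted p = 0.00657). That call held in each of the 6 fits that left out a library, with log2 differences from -2.74 to -2.68. Against iWAT it was 5.16-fold lower in BAT (-2.37 ± 0.18, adjusted p = 0.011), and this call was lost without BAT replicate 1 (-2.34), BAT replicate 2 (-2.38), iWAT replicate 1 (-2.22) or iWAT replicate 2 (-2.49). The difference of iWAT from eWAT was -0.34 ± 0.17 (adjusted p = 0.657). The classical voltage-gated genes Scn3a and Scn8a, found in neurons, had 37 and 26 counts in all and were not tested.

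Scn3b encodes a sodium channel beta subunit, an auxiliary protein that modulates gating. It had 1.69 and 0 CPM in the BAT libraries, 0.962 and 0.754 CPM in the iWAT libraries and 6.76 and 4.84 CPM in the eWAT libraries. The eWAT libraries lay above all others, while BAT and iWAT overlapped. Its BAT-to-eWAT difference of -2.48 ± 0.84 SE did not pass edgeR's test (adjusted p = 0.129).

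Voltage-gated potassium channel alpha subunits were the largest family by symbols, with 40, of which 13 were members and 4 were tested. Kcnc2 (NM_001025581; mm9 chromosome 10, 111708178 to 111903360) encodes Kv3.2, a fast-deactivating channel known from rapidly firing neurons. It had 12.5 and 26.8 CPM in the BAT libraries, 5.77 and 6.79 CPM in the iWAT libraries and 1.40 and 0.569 CPM in the eWAT libraries. The depots did not overlap, and the eWAT value rested on 6 and 2 counts. By edgeR the difference of BAT from eWAT was 4.21 ± 0.60 SE on the log2 scale (adjusted p = 0.0243). Among fits that left out a library this call held in the one without BAT replicate 1; it was lost without BAT replicate 2 (3.58), iWAT replicate 1 (4.21), iWAT replicate 2 (4.22), eWAT replicate 1 (5.01) or eWAT replicate 2 (3.76). The differences of BAT from iWAT (1.62 ± 0.48, adjusted p = 0.188) and of iWAT from eWAT (2.59 ± 0.62, adjusted p = 0.203) had the same sign and did not pass.

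Kcns3, a silent subunit that conducts no current alone and modifies other voltage-gated potassium channels, had a different order. It had 17.3 and 15.7 CPM in the BAT libraries, 6.01 and 4.78 CPM in the iWAT libraries and 10.7 and 8.25 CPM in the eWAT libraries. The depots did not overlap, with iWAT lowest. Its difference of BAT from iWAT was 1.61 ± 0.31 SE (edgeR adjusted p = 0.0882), and DESeq2 called it (1.62, adjusted p = 0.0279). The heart and epithelial channel gene Kcnq1 had 21 counts in all, and the lymphocyte channel gene Kcna3, with 1 count, was no member.

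Of the inward rectifiers, which pass potassium more easily into the cell than out of it, 4 of 15 symbols were members and 3 were tested. Kcnj15 (NM_001039057; mm9 chromosome 16, 95479164 to 95521865), which encodes Kir4.2, had 2.11 and 1.91 CPM in the BAT libraries, 16.4 and 14.1 CPM in the iWAT libraries and 12.8 and 12.2 CPM in the eWAT libraries. BAT lay well below both white depots, on 10 and 5 counts. It was 7.40-fold lower in BAT than in iWAT (log2 difference -2.89 ± 0.32 SE, edgeR adjusted p = 0.0235), a call lost without BAT replicate 1 (-2.97), BAT replicate 2 (-2.82), iWAT replicate 1 (-2.77) or iWAT replicate 2 (-2.99). Against eWAT it was 6.09-fold lower (-2.61 ± 0.33, adjusted p = 0.0203), a call lost without BAT replicate 2 (-2.55), iWAT replicate 2 (-2.60), eWAT replicate 1 (-2.57) or eWAT replicate 2 (-2.63). The difference of iWAT from eWAT was 0.28 ± 0.27 (adjusted p = 0.947).

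Kcnj2, which encodes the strong rectifier Kir2.1, had 18.2 and 8.41 CPM in BAT, 22.6 and 20.4 CPM in iWAT and 24.5 and 27.9 CPM in eWAT. BAT was lowest without overlap, but neither BAT difference passed (-0.66 from iWAT, adjusted p = 0.423; -0.94 from eWAT, adjusted p = 0.172; edgeR). Kcnj8 forms the pore of an ATP-sensitive potassium channel with the sulfonylurea receptor Abcc9. It had 1.48 and 1.15 CPM in BAT and 6.01 and 6.54 CPM in iWAT, and the eWAT libraries lay far apart at 1.40 and 12.5 CPM. Abcc9, tested outside the channel families, had 6.97 and 17.2 CPM in BAT, 26.7 and 36.2 CPM in iWAT and 7.22 and 13.4 CPM in eWAT. For both genes BAT lay below iWAT without overlap, and neither difference passed edgeR's test (-2.20, adjusted p = 0.345; -1.42, adjusted p = 0.238). Abcc9 was 1 of the 8 markers of smooth muscle and mural cells, and these summed to 1926 and 348 CPM in BAT, 1068 and 432 CPM in iWAT and 1408 and 621 CPM in eWAT, with none at 0 throughout. Acta2 and Tagln weighed heavily in some of these sums, with 898 and 747 CPM in BAT replicate 1 against 81.1 and 65.4 CPM in BAT replicate 2. The markers did not share an order of depots, since Pdgfrb was highest in eWAT and Abcc9 in iWAT. The part of smooth muscle and mural cells in the values of Kcnj8 and Abcc9 was not tested.

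The two-pore-domain family supplies background leak current, and 5 of 14 symbols were members, with 3 tested. Kcnk3, the acid-sensitive channel TASK-1, had 102 and 199.98 CPM in the BAT libraries, 92.4 and 108 CPM in the iWAT libraries and 41.5 and 88.7 CPM in the eWAT libraries. The BAT libraries lay above both eWAT libraries and overlapped iWAT, and the 2 BAT libraries differed widely. By edgeR the differences of BAT were 0.59 ± 0.44 SE from iWAT (adjusted p = 0.55) and 1.21 ± 0.44 from eWAT (adjusted p = 0.154). Per kilobase the mean was 42.2 ± 19.3 RPKM in BAT, 28.0 ± 3.06 RPKM in iWAT and 18.2 ± 9.34 RPKM in eWAT (SD, n = 2).

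Kcnk13 (NM_146037; mm9 chromosome 12, 101202708 to 101300892) encodes THIK-1, known as a resting potassium channel of microglia. It had 0.845 and 1.15 CPM in the BAT libraries, 0.241 and 1.26 CPM in the iWAT libraries and 13.3 and 8.53 CPM in the eWAT libraries. The eWAT libraries stood apart, while BAT and iWAT overlapped near the detection limit, with 7 and 6 counts over both libraries. It was lower in BAT than in eWAT by a log2 difference of -3.46 ± 0.65 SE (edgeR adjusted p = 0.0373), a call lost without BAT replicate 1 (-3.21), BAT replicate 2 (-3.65), iWAT replicate 1 (-3.47), iWAT replicate 2 (-3.45), eWAT replicate 1 (-3.10) or eWAT replicate 2 (-3.73). The difference of iWAT from eWAT was -3.83 ± 0.66 (adjusted p = 0.129). Kcnk6 (TWIK-2) was also highest in eWAT, at 9.32 and 7.11 CPM, against 5.07 and 0.765 CPM in BAT and 5.77 and 3.02 CPM in iWAT, and was not called.

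Macrophage markers were, like Kcnk13, highest in eWAT. The 9 markers in the table, which all passed the filter, summed to 409 and 88.7 CPM in the BAT libraries, 602 and 171 CPM in the iWAT libraries and 4496 and 1901 CPM in the eWAT libraries. Lyz2 gave most of each sum, with 3633 and 1443 CPM in the eWAT libraries. By edgeR, 5 of the 9 markers were lower in BAT cultures than in eWAT cultures. Lyz2 was not among the 5 (adjusted p = 0.0827), and none of the 9 markers was at 0 in every library. Other channel genes with their highest depot mean in eWAT included Kcnn4, Kcnab2, Scn3b, Cacna1g, Kcnk6 and Trpv2. The part of macrophages in the values of Kcnk13 and of all such genes was not tested.

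**Figure D4:**
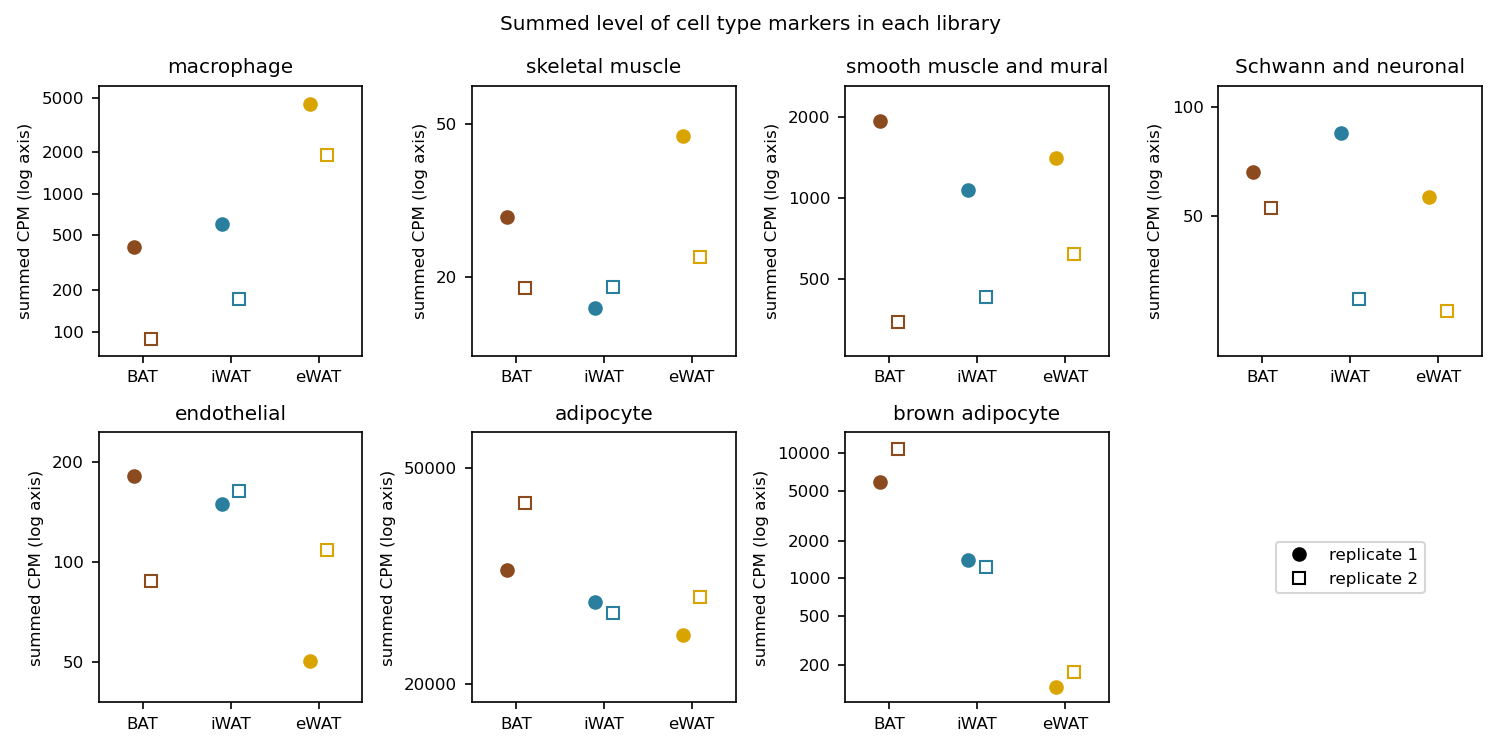
Summed CPM of the cell type marker lists (y axis, logarithmic, one scale per panel) by depot (x axis); filled circles are replicate 1 and open squares replicate 2. The macrophage sum is highest in both eWAT libraries (4496 and 1901 CPM), and the brown adipocyte sum is highest in both BAT libraries (5846 and 10873 CPM).

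Potassium channels opened by calcium or sodium inside the cell were grouped with the pH-sensitive Kcnu1. This group had 5 members of 8 symbols, 4 of them tested and none called. Kcnn4, the intermediate-conductance channel of blood and immune cells, had 1.48 and 0 CPM in BAT, 2.41 and 1.76 CPM in iWAT and 8.62 and 5.12 CPM in eWAT. The depots did not overlap, and eWAT was highest, as were the macrophage markers. Its difference of BAT from eWAT was -2.91 ± 0.83 SE (edgeR adjusted p = 0.0908), and DESeq2 called it (-3.02, adjusted p = 0.046). Kcnma1, the large-conductance BK channel of smooth muscle and neurons, had 0.845 and 1.53 CPM in BAT, 3.37 and 3.52 CPM in iWAT and 2.10 and 4.55 CPM in eWAT. BAT was lowest, with differences of -1.59 from iWAT and -1.52 from eWAT that did not pass (adjusted p = 0.281 and 0.194). The small-conductance channel gene Kcnn1 differed little between depot means, at 1.59 ± 0.0282 RPKM in BAT, 1.34 ± 0.300 RPKM in iWAT and 1.51 ± 0.750 RPKM in eWAT (SD, n = 2).

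Auxiliary subunits of potassium channels had 8 members of 15 symbols, 4 of them tested and none called. Kcne4 and Kcne3 encode small single-span proteins that alter voltage-gated potassium channels. Kcne4 had 20.9 and 27.5 CPM in BAT, 46.2 and 53.0 CPM in iWAT and 16.5 and 27.6 CPM in eWAT, so iWAT lay above both other depots. Its edgeR differences were -1.04 ± 0.30 SE for BAT from iWAT (adjusted p = 0.173) and 1.17 ± 0.30 for iWAT from eWAT (adjusted p = 0.223). The BAT libraries and the eWAT libraries lay far apart for Kcne3, with 29.2 and 4.59 CPM in BAT, 21.2 and 19.4 CPM in iWAT and 1.16 and 11.9 CPM in eWAT. Kcnab2 encodes a cytoplasmic beta subunit with the fold of an aldo-keto reductase. It had 4.86 and 1.91 CPM in BAT, 6.74 and 2.26 CPM in iWAT and 27.7 and 15.1 CPM in eWAT. The eWAT libraries lay above all others, as did the macrophage markers, and the difference of BAT from eWAT was -2.57 ± 0.65 by edgeR (adjusted p = 0.0685) and -2.61 by DESeq2, which called it (adjusted p = 0.00787).

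Of the calcium channel pore genes, 7 of 10 symbols were members, 4 were tested and none was called. Cacna1g, a low-voltage-activated T-type channel gene, had 4.44 and 1.91 CPM in BAT, 11.8 and 3.52 CPM in iWAT and 24.2 and 10.2 CPM in eWAT. BAT lay below eWAT without overlap, and replicate 1 was above replicate 2 in each depot. The difference of BAT from eWAT was -2.36 ± 0.75 SE by edgeR (adjusted p = 0.113) and -2.39 by DESeq2, which called it (adjusted p = 0.0346). Cacna1a, the P/Q-type gene of nerve terminals, had 7.40 and 8.03 CPM in BAT, 16.6 and 7.54 CPM in iWAT and 7.22 and 7.11 CPM in eWAT. Cacna1c, the L-type channel of heart and smooth muscle, had 8.88 and 4.21 CPM in BAT, 10.1 and 5.03 CPM in iWAT and 5.13 and 3.13 CPM in eWAT, with overlap throughout. Its span from start to end overlaps that of Dcp1b on the opposite strand, though shared counted bases were not tested. The strandedness of the counting is not given in the sources used here.

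Calcium channel auxiliary subunits had 7 members of 16 symbols, 5 of them tested and none called. Cacnb3, a cytoplasmic beta subunit that brings pore subunits to the membrane, had 11.0 and 5.35 CPM in BAT, 17.1 and 12.3 CPM in iWAT and 18.4 and 11.1 CPM in eWAT. BAT lay below both white depots without overlap, but the differences did not pass (-0.80 ± 0.44 SE from iWAT and -0.81 ± 0.44 from eWAT, edgeR adjusted p = 0.417 and 0.308). Cacna2d1, the alpha-2-delta subunit bound by gabapentin, had 17.3 and 9.56 CPM in BAT, 29.3 and 22.9 CPM in iWAT and 17.2 and 11.4 CPM in eWAT. It was highest in iWAT, without a call (adjusted p = 0.285 for BAT from iWAT and 0.556 for iWAT from eWAT). Cacng7, a gamma subunit gene, ran from 1.91 to 5.53 CPM over the 6 libraries.

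TRP channels had 10 members of 21 symbols, 4 of them tested and none called. Trpm7, a magnesium-permeable channel fused to a kinase, was the member with the most counts (5348 in all). It had 243 and 325 CPM in BAT, 199 and 217 CPM in iWAT and 195 and 233 CPM in eWAT. BAT lay slightly above both white depots, by 0.45 ± 0.21 SE on the log2 scale from iWAT and 0.41 ± 0.21 from eWAT (edgeR adjusted p = 0.349 and 0.281). Trpv2, a calcium-permeable channel studied in macrophages and in brown adipocytes, had 30.6 and 13.8 CPM in BAT, 38.0 and 39.7 CPM in iWAT and 67.1 and 39.8 CPM in eWAT. BAT was lowest, and the difference from eWAT was -1.24 ± 0.41 (edgeR adjusted p = 0.125). Replicate 2 of iWAT and replicate 2 of eWAT had nearly the same level of Trpv2, at 39.7 and 39.8 CPM. Trpc1, a cation channel gene of the TRPC group, had 19.2 and 19.5 CPM in BAT, 9.14 and 16.1 CPM in iWAT and 9.55 and 13.9 CPM in eWAT, with BAT highest and no call (adjusted p = 0.437 and 0.265).

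The thermosensitive TRP genes Trpv4, Trpv1 and Trpm8 were scarce in these cultures, unlike Trpv2, which had 925 counts in all. Trpv4, opened by warmth and osmotic swelling, had 38 counts in all and was not tested; it had 0.634 and 0 CPM in BAT, 0.962 and 0.251 CPM in iWAT and 5.36 and 1.99 CPM in eWAT. The capsaicin receptor gene Trpv1 had 9 counts over the 6 libraries and the cold and menthol receptor gene Trpm8 had 7, both below the minimum for members. At this depth the levels of Trpv1 and Trpm8 could not be compared between depots. For Trpv4 both eWAT libraries lay above all others, on 23 and 7 counts. The authors' own deposited tests called Trpv4 lower in BAT than in eWAT (log2 difference -3.26, adjusted p = 8.2e-05). They also called it lower in iWAT than in eWAT (-2.55, adjusted p = 0.00052).

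Over the 35 tested members the median log2 difference was -0.46 for BAT from iWAT, -0.38 for BAT from eWAT and 0.07 for iWAT from eWAT, beside -0.02, -0.03 and 0.01 over all genes tested. The filter kept these 35 partly by their level in the depot where they were high, so the medians describe them and not all 67 members. Both BAT libraries lay above both eWAT libraries for 9 members, beside 26.8% of all genes, and below them for 16, beside 28.5%. For BAT against iWAT the numbers were 7 above, beside 23.9%, and 13 below, beside 24.1%. For iWAT against eWAT they were 10 above, beside 19.2%, and 11 below, beside 18.8%.

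The authors' deposited table of their own tests, which lists every member, had more calls. At its adjusted p below 0.05, the authors' deposited table had 3 of 67 members above and 8 below iWAT in the BAT cultures, beside 2.91% and 5.33% of all 20295 genes. For BAT against eWAT the authors' deposited table had 5 higher and 18 lower, beside 6.58% and 9.05%. For iWAT against eWAT the authors' deposited table had 6 higher and 8 lower, beside 3.25% and 5.27%. The 20295 genes had no count minimum, unlike the 67 members, so these shares include genes with few or no counts and are not a like background. Every member called by edgeR here was also called there, in the same direction.

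A list of 52 other ion transport genes (pumps, exchangers, intracellular calcium channels and ligand-gated channels), 36 of them tested, gave a frame for the channel families. P2rx5, an ATP-gated cation channel, and Itpr2, a calcium release channel of the endoplasmic reticulum, were higher in BAT than in eWAT (log2 difference 2.38 and 2.06, edgeR adjusted p = 0.0204 and 0.0332). P2rx5 had 19.7 and 16.4 CPM in BAT, 10.1 and 11.6 CPM in iWAT and 3.49 and 3.41 CPM in eWAT, the same order of depots as Otop1 and Kcnc2. Lower in BAT than in eWAT were the endolysosomal TRPML channel gene Mcoln2 (-3.62, adjusted p = 0.0156), the sodium-calcium exchanger gene Slc8a1 (-2.53, adjusted p = 0.0313), the mechanically gated channel gene Piezo1 (-1.13, adjusted p = 0.0458) and the plasma membrane calcium pump gene Atp2b4 (-1.80, adjusted p = 0.0472). Mcoln2 was also lower in BAT than in iWAT (-2.70, adjusted p = 0.049), and no gene of the list was called between iWAT and eWAT.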

How the data were processed

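RNA was measured in 6 libraries, 2 per depot, made from TRIzol-extracted, ribosomal-RNA-depleted total RNA with a TruSeq kit, per the labels' protocols. Reads were aligned with STAR to mm9, per the submitters' processing notes; the counting program, strand setting and treatment of reads with several matches were not given in the sources used here. In the deposited count table each gene has whole-number counts, without normalization per the file headers, and a counted length. A table of the authors' own tests holds log2 fold changes, p-values and a likelihood ratio score per contrast, per the file headers; the tool behind it is not stated there.

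Counts were tested with the edgeR 4.0.16 quasi-likelihood F test (R 4.3.3, TMM factors 0.907 to 1.05, filterByExpr keeping 11732 genes and leaving out 8563, depot as the only term, two-sided). Benjamini-Hochberg adjustment ran over all genes tested in a contrast, with calls made below an adjusted p of 0.05. One fit held all 6 libraries (3 residual and 3.34 prior degrees of freedom, biological coefficient of variation 0.251). Differences are on the log2 scale, BAT minus iWAT, BAT minus eWAT and iWAT minus eWAT. CPM and RPKM used the TMM-scaled library sizes. A chi-square comparison of the replicates gave 19.8 per degree of freedom in BAT, 16.0 in iWAT and 18.4 in eWAT. The 2 libraries of each depot thus differed by more than counting error. Whether they had separate RNA, dishes or animals as their source cannot be read from this, and libraries of different depots were not compared in this way. The edgeR step was first tested on simulated counts.

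The members, gene lists, tests and alternatives were chosen with earlier results of these data known. Genes named are the members called in any contrast, the 2 most abundant per family by RPKM, a set of anchors (Kcnk3, Kcnc2, Kcnma1, Kcnq1, Kcnj8, Kcnn4, Kcnab2, Cacna1c, Cacna2d1, Trpv1, Trpv2, Trpv4, Trpm7, Trpm8, Trpc1, Otop1 and Kcna3), up to 2 untested members per family by summed count, and the called genes of the list of other ion transport genes. Kcnk6 and Abcc9 were added after their values were seen, and the values of some members are not reported here. Alternatives used DESeq2 1.42.0, limma 3.58.1, RLE factors, other filters, fewer samples and a replicate block. Python 3.11.15 with matplotlib 3.10.9 drew the figures.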

Additional observations from a re-analysis of the deposited data

How the results depend on the processing

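With 2 libraries per depot, the number of calls moved with the settings while no called difference reversed its direction. Of 991 recomputed differences of named genes, 913 stayed on their side of the threshold, 38 lost the call, 40 gained one and 0 reversed a call; 29 of the 913, all uncalled, changed sign. For BAT against iWAT, 2 members were called, against 1 by limma voom and 6 with no filter on low counts, and 0 to 2 with a library left out. For BAT against eWAT, 6 members were called, against 14 with no filter, 2 with the 4 libraries of both depots alone, and 1 to 8 with a library left out: 1 without BAT replicate 2, iWAT replicate 2 or eWAT replicate 2, 2 without eWAT replicate 1, 3 without iWAT replicate 1 and 8 without BAT replicate 1. For iWAT against eWAT, 0 members were called, against 3 by DESeq2 and 5 with no filter, and 0 with any library left out. Over all genes the counts were 122 for BAT against iWAT (510 by DESeq2, 69 by limma voom, 780 with no filter, 0 to 94 with a library left out), 758 for BAT against eWAT (1370 by DESeq2, 1937 with no filter, 156 with the 4 libraries, 17 to 829 with a library left out) and 0 for iWAT against eWAT (301 by DESeq2, 1 by limma voom, 557 with no filter, 2 with the 4 libraries, 0 to 3 with a library left out). Fewer libraries leave fewer residual degrees of freedom; the other causes were not tested. Where a depot was left with 1 library, that library was assumed to vary like the others.

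Replicate number as a block was not part of the fit, since the labels do not say what a number shares. Across genes, the replicate 1 minus replicate 2 differences in log2 CPM correlated at 0.448 between BAT and iWAT, 0.412 between BAT and eWAT and 0.556 between iWAT and eWAT. With the replicate block, 6, 12 and 4 members were called for BAT against iWAT, BAT against eWAT and iWAT against eWAT, and 1225, 2780 and 563 genes of all tested. The members that gained a call under the block were Kcnc2, Kcne4, Kcns3 and Cacna2d1 for BAT against iWAT, Cacna1g, Kcnab2, Kcnk3, Kcnn4, Scn3b and Trpv2 for BAT against eWAT, and Kcnab2, Kcne4, Kcnk13 and Otop1 for iWAT against eWAT. No call was lost under it.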

Other observations

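Of the 32 members with too few counts to test, 206 counts in all fell in the BAT libraries, 246 in the iWAT libraries and 257 in the eWAT libraries, and none exceeded 23 counts in a library. Kcnu1, a pH-sensitive potassium channel of sperm, and Trpc4, a receptor-operated cation channel, had no count in BAT, and Kcna4, an A-type potassium channel, had none in eWAT. The untested members with the most counts in their families included Kcnk5 (52), Cacnb1 (39), Trpc6 (39), Kcnd1 (33), Kcnab3 (32), Kcnk2 (29), Cacnb2 (25), Kcnip3 (23), Kcna1 (22), Cacna1h (19), Kcnj13 (19) and Cacna1e (17). The spans of 6 members, from start to end, overlapped another gene's span on the opposite strand (Cacna1c, Cacna1d, Cacna1h, Cacna2d4, Kcnj13 and Kcnmb1). Whether the counted bases of member and partner overlap was not tested. Where they do and strand was not used, reads of the pair could not be told apart.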
